A study of Mus musculus with 27 samples.

Results

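The genes described here are the glucocorticoid receptor and a set of its well known target genes in brain myeloid cells, 10 genes in all: Nr3c1, Fkbp5, Tsc22d3, Sgk1, Per1, Klf9, Zbtb16, Ddit4, Errfi1 and Cdkn1a. They were chosen by name, and each name was matched to 1 Ensembl gene in each of the deposited count tables, which list 53412 genes in the minocycline experiment and 55421 in the enrichment experiment. Earlier results of these data were known when the set was drawn up: Per1 had stood out in hippocampus under minocycline, so that difference is described below without a test. All 10 genes passed the filter on low counts in both tables, among the 14579 and 15921 genes tested.

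The study measured polyadenylated RNA of CD11b+ cells sorted from the hippocampus (HC) and the prefrontal cortex (PFC) of mice whose strain the labels write as C57BJ6. CD11b is a surface integrin of microglia and other myeloid cells. The minocycline experiment has 3 groups in each region: CUMS_M, which went through chronic unpredictable mild stress (CUMS, a rodent model of depression) and received minocycline, a tetracycline antibiotic (3 HC and 3 PFC libraries); CUMS, with the stress protocol alone (3 HC and 2 PFC libraries); and NAIVE, without it (2 HC and 2 PFC libraries). The enrichment experiment has EE, stressed mice given environmental enrichment, and VEH, stressed mice given a vehicle, with 3 libraries per group and region. No transgene or mutation is named, the labels name no vehicle for the CUMS group, and age, sex, dose and hour of tissue collection are not given in the sources used here. Both EE and VEH were stressed, so that experiment has no unstressed group. The labels do not say that replicates came from separate animals, so p-values measure the spread between these libraries.

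The glucocorticoid receptor, product of Nr3c1, rests in the cytoplasm on Hsp90 chaperones and enters the nucleus when corticosterone binds it. There it raises the transcription of genes with glucocorticoid response elements and restrains inflammatory genes driven by NF-kB and AP-1. Microglia express the receptor, and stress hormones act on them through it. Several of the target genes also answer other signals: Per1 is a repressor of the circadian clock and an early gene of cyclic AMP signalling, and Ddit4 and Cdkn1a respond to cell stress.

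Promoter windows of 250 bases before a transcript start, from RefSeq on GRCm38.p6, were found for 8 of the 10 genes, 18 windows in all. The windows of Sgk1 and Per1 are shown because Sgk1 has the full receptor motif and because Per1 is the gene that drew attention to the set. In the Sgk1 window the capitals mark an E-box (CACGTG) and then the palindromic glucocorticoid response element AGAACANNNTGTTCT. In the first Per1 window they mark the core of a cyclic AMP response element (TGACG) and then an E-box, and in the second Per1 window that core alone.
Sgk1, chr10:21993640-21993889, plus strand: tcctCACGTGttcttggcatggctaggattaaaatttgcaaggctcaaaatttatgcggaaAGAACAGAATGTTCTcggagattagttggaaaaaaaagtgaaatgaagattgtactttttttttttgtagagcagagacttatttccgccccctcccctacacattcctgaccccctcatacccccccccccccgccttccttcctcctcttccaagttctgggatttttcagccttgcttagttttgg
Per1, chr11:69098699-69098948, plus strand: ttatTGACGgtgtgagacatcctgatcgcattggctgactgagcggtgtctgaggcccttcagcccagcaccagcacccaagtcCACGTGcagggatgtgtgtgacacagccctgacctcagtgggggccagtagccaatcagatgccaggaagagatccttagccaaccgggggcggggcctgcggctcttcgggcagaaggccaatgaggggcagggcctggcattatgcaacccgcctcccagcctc
Per1, chr11:69099902-69100151, plus strand: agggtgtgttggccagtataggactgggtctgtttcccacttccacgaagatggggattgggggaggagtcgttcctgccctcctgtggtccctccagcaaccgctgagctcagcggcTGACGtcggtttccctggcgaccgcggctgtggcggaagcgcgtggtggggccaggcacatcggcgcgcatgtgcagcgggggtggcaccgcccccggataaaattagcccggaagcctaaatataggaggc

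The full glucocorticoid response element, searched on both strands, is in 3 of 32851 RefSeq windows of this length (0.00913%), and 1 of these is the Sgk1 window, at bases -189 to -175. Its hexamer AGAACA is in 16.1% of all windows and in 4 of the 18 windows of the set, which belong to Sgk1 and Tsc22d3. The Sgk1 window shown holds 3 hexamers, of which 2 are the arms of the full element and 1, on the other strand at bases -242 to -237, overlaps the E-box. CACGTG is in 6.02% of all windows and in windows of Per1, Fkbp5 and Sgk1. TGACG is in 17.8% of all windows and in windows of 5 genes of the set, among them both Per1 windows, and the full TGACGTCA, which contains it, is in 1.55% of all windows and in 1 Errfi1 window. A match describes letters in these windows and no more.

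Levels are given as CPM, the counts of a gene divided by the scaled library total in M counts (M for mega). The libraries held 7.87 to 15.3 M counts in the minocycline experiment and 19.5 to 23.9 M counts in the enrichment experiment. Microglial markers were high in every library: Csf1r lay between 13224 and 17520 CPM in the minocycline experiment and between 10858 and 14500 CPM in the enrichment experiment, and Itgam, which encodes CD11b, between 461 and 637 CPM in the enrichment experiment. Markers of other brain cells were present at lower levels and differed between groups: their values stand beside the results they move with. Of 8 choroid plexus genes, the summed level was 763 to 2697 CPM in HC EE and 6.20 to 309 CPM in HC VEH, a gap between libraries that carry the same region label. The tissue came as bulk RNA of sorted cells, so a lower level of a gene may mean fewer cells that express it or less RNA per cell, which cannot be told apart.

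In GENCODE M21 on GRCm38 the receptor gene Nr3c1 lies at chr18:39410545-39519421 on the minus strand. Its targets are spread over the genome: Per1 at chr11:69095217-69109960 (plus), Fkbp5 at chr17:28399094-28517527 (minus), Tsc22d3 at chrX:140539528-140600659 (minus), Sgk1 at chr10:21882184-21999903 (plus) and Klf9 at chr19:23141226-23168134 (plus). Errfi1 lies at chr4:150853919-150868892 (plus), Ddit4 at chr10:59949669-59951834 (minus), Zbtb16 at chr9:48654297-48836222 (minus) and Cdkn1a at chr17:29090976-29100727 (plus). Counts are over exons, and only Cdkn1a overlaps a gene of the other strand there, over 7.68% of its exon bases. The strand setting of the counting is not given in the sources used here, so reads of that stretch may belong to either gene.

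Per kilobase of exon, the 10 genes covered a wide range of levels, and the order was nearly the same in both experiments. Sgk1, the serum and glucocorticoid regulated kinase, was the most abundant at 116 ± 13.4 CPM per kilobase (SD, n = 15) in the minocycline libraries. Tsc22d3, which encodes the leucine zipper protein GILZ, an inhibitor of NF-kB and AP-1, followed at 37.3 ± 8.89, Nr3c1 at 31.0 ± 2.25 and Per1 at 28.03 ± 8.99 CPM per kilobase. These 3 neighbours did not differ beyond their spread. Ddit4, an inhibitor of mTOR signalling, had 19.5 ± 5.39, Fkbp5, an Hsp90 co-chaperone that lowers the affinity of the receptor for its hormone, 13.9 ± 2.28, and Errfi1, a feedback inhibitor of the EGF receptor, 11.9 ± 2.01 CPM per kilobase. Cdkn1a, a cyclin-dependent kinase inhibitor, had 6.04 ± 1.60 CPM per kilobase. The zinc finger transcription factors were low: Klf9 had 1.60 ± 0.714 and Zbtb16 0.341 ± 0.161 CPM per kilobase, and Zbtb16 rested on 6 to 40 counts per library. In the 12 enrichment libraries Sgk1 again led, at 160 ± 19.6, and Per1, at 44.4 ± 13.1, stood above Nr3c1, at 35.8 ± 3.63 CPM per kilobase.

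The receptor gene had the smallest SD relative to its mean of the 10 genes in both experiments. In the minocycline experiment Nr3c1 ran from 208 to 269 CPM over all 15 libraries, and the highest library of a group was at most 1.14 times its lowest. In the enrichment experiment it ran from 244 to 332 CPM. Per1, by contrast, ran from 88.7 to 265 CPM in the first experiment and from 168 to 398 CPM in the second.

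Minocycline in stressed hippocampus is the contrast in which Per1 had stood out when the set was drawn up. Per1 had 88.7, 97.2 and 97.0 CPM in HC CUMS_M, against 187, 187 and 194 CPM in HC CUMS. The groups were far apart relative to their spread, with means of 94.3 ± 4.82 CPM in HC CUMS_M and 189 ± 4.03 CPM in HC CUMS (SD, n = 3 each), a log2 difference of -1.01 ± 0.13 (SE). Tsc22d3 had 77.4, 144 and 142 CPM in HC CUMS_M and 217, 178 and 196 CPM in HC CUMS, a log2 difference of -0.70 ± 0.21. Fkbp5 had 110, 115 and 123 CPM in HC CUMS_M and 132, 136 and 202 CPM in HC CUMS, a log2 difference of -0.44 ± 0.13. For both genes every HC CUMS_M library lay below every HC CUMS library, and for each of them 1 library carried much of the difference, the low first HC CUMS_M library for Tsc22d3 and the high HC CUMS library of replicate 3 for Fkbp5. Without that HC CUMS library the Fkbp5 difference was -0.21, and without that first HC CUMS_M library the Tsc22d3 difference was -0.46. Cdkn1a had 12.9, 21.7 and 21.4 CPM in HC CUMS_M and 36.4, 25.2 and 21.9 CPM in HC CUMS, so that its groups only just separated.

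Klf9 also separated, with 9.07, 6.45 and 9.46 CPM in HC CUMS_M and 9.55, 10.4 and 13.3 CPM in HC CUMS, a log2 difference of -0.41 ± 0.38. In all, 5 of the 10 genes lay below without overlap and none above, where 4.27% and 6.04% of all 14579 genes did so, and 0.00686% passed the edgeR test. Because earlier results of this contrast were known when the set was drawn up, nothing is read from that count. Ddit4 (18.5, 25.3 and 32.8 CPM in HC CUMS_M, 28.6, 35.4 and 56.1 CPM in HC CUMS), Errfi1 and Zbtb16 had overlapping groups. Sgk1 and Nr3c1 were near level: Sgk1 had 588, 581 and 545 CPM in HC CUMS_M and 631, 622 and 500 CPM in HC CUMS, and Nr3c1 246, 220 and 244 CPM in HC CUMS_M and 208, 222 and 234 CPM in HC CUMS.

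Early response genes also had lower values in HC CUMS_M. Of 22 immediate early genes, 22 had a negative log2 difference and 19 lay below without overlap, and their summed level was 10274 to 13133 CPM in HC CUMS_M and 15145 to 27731 CPM in HC CUMS. Of 16 core clock genes tested, 12 had a negative log2 difference, with a median of -0.09 against 0.01 over all genes. None of them lay wholly above or below (0 of 16). The summed level of the clock list was 711 to 740 CPM in HC CUMS_M and 630 to 825 CPM in HC CUMS. Per2, the closest relative of Per1 among them, had 9.40, 8.29 and 12.5 CPM in HC CUMS_M and 11.9, 12.6 and 14.4 CPM in HC CUMS. Neutrophil markers stood higher in some HC CUMS_M libraries, at 301 to 2192 CPM summed in HC CUMS_M and 152 to 424 CPM in HC CUMS, with no gene of that list at 0. Endothelial and mural genes had negative differences in 11 of 12, with 4 below without overlap, where 4.27% of all genes were. Differences were also negative in 11 of 12 oligodendrocyte and 8 of 8 border-associated macrophage genes, and mixed for astrocyte and neuron genes. They were positive in 8 of 8 choroid plexus, 6 of 8 monocyte and 12 of 12 microglia genes. The summed level of each of these lists overlapped between the groups. With the mean level of markers of other brain cells as a covariate the Per1 difference was -1.16 and that of Tsc22d3 -1.05, and that of Klf9 became 0.10. The early response, neutrophil, border-associated macrophage, choroid plexus and monocyte genes are not in that covariate. Their part in the Per1 difference was not tested.

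**Figure D1:**
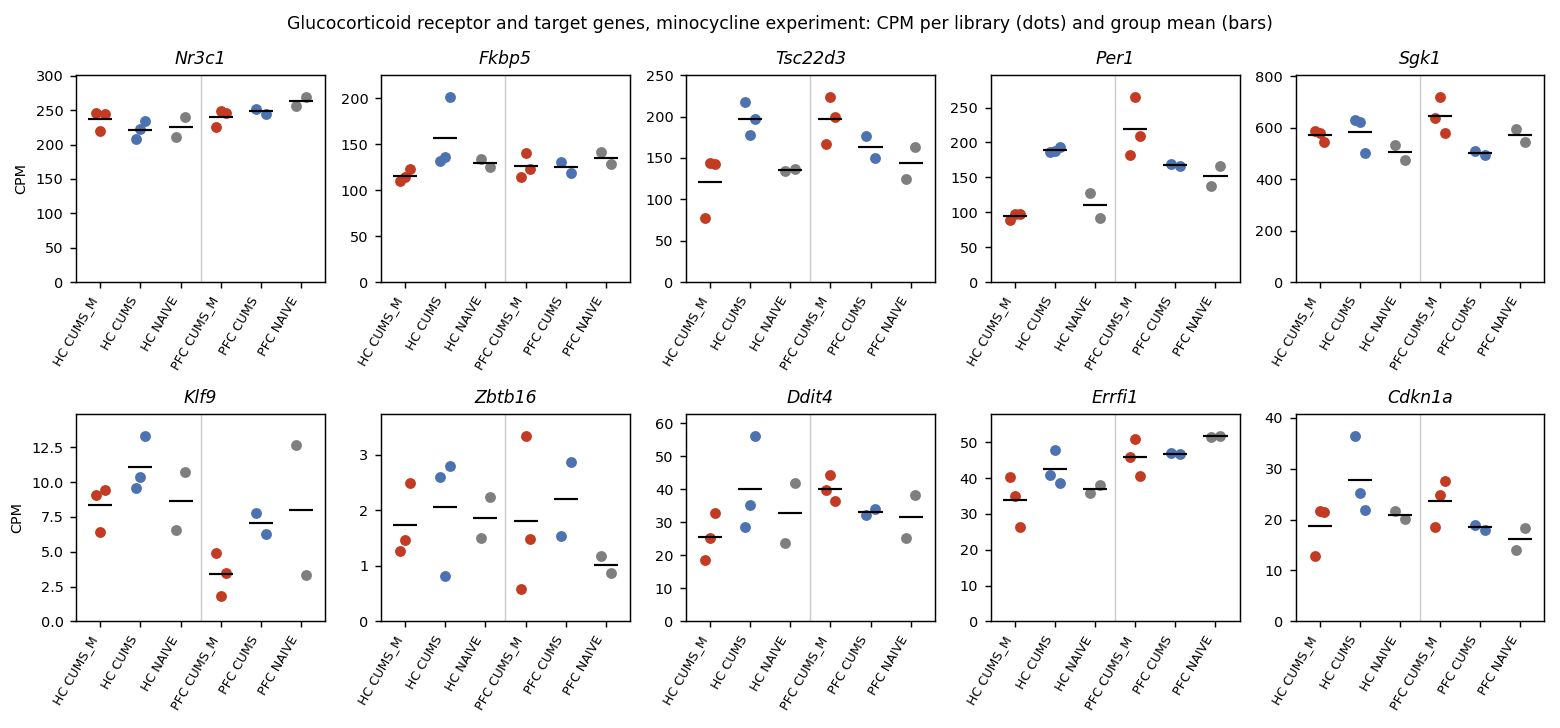
CPM of the receptor and target genes in the minocycline experiment, each on its own axis from 0, with 1 dot per library and a bar at the group mean (n = 2 or 3), for HC on the left and PFC on the right of each panel. Per1 in HC CUMS_M lies at 88.7 to 97.2 CPM, below all 3 HC CUMS libraries at 187 to 194 CPM, while in PFC the CUMS_M libraries lie above the CUMS libraries.

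In prefrontal cortex none of the 10 genes passed the edgeR test for minocycline, and 3 of all genes did (0.0206%). Per1 stood on the other side there: 182, 265 and 210 CPM in PFC CUMS_M, against 169 and 167 CPM in PFC CUMS, a log2 difference of 0.38 ± 0.14 (edgeR adjusted p = 0.604). It was 0.22 without PFC CUMS_M replicate 2 and 0.50 without PFC CUMS_M replicate 1. Sgk1 had 639, 721 and 579 CPM in PFC CUMS_M and 511 and 496 CPM in PFC CUMS, a log2 difference of 0.36 ± 0.11 (edgeR adjusted p = 0.389). Ddit4 had 39.9, 44.4 and 36.4 CPM in PFC CUMS_M and 32.2 and 34.1 CPM in PFC CUMS. These 3 genes lay above without overlap, where 8.98% of all genes did. Klf9, at 4.93, 1.79 and 3.49 CPM in PFC CUMS_M and 7.78 and 6.31 CPM in PFC CUMS, lay below, as did 12% of all genes, with a log2 difference of -1.03 ± 0.45 (edgeR adjusted p = 0.779).

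Markers of other brain cells were lower in the same PFC libraries. All 12 astrocyte, 12 oligodendrocyte and 12 endothelial and mural genes had negative log2 differences, and the summed astrocyte level was 305 to 489 CPM in PFC CUMS_M and 731 to 794 CPM in PFC CUMS. The summed oligodendrocyte level was 269 to 412 CPM in PFC CUMS_M and 727 to 780 CPM in PFC CUMS, and no oligodendrocyte gene was at 0 in any of these libraries. With the mean level of such markers as a covariate the Per1 difference became -0.19, that of Ddit4 -0.44 and that of Klf9 0.53. Each had the opposite sign, while the Sgk1 difference was 0.30. That mean level was 2.04 to 2.76 log2 CPM in PFC CUMS_M and 3.70 to 3.86 log2 CPM in PFC CUMS. The groups did not overlap in it, so marker level and treatment cannot be told apart in that fit. Nr3c1 had 226, 249 and 245 CPM in PFC CUMS_M and 252 and 244 CPM in PFC CUMS, and Fkbp5 115, 141 and 123 CPM in PFC CUMS_M and 131 and 119 CPM in PFC CUMS. Both pairs of groups overlapped. Of the immediate early genes 19 of 22 had positive differences here, at 21453 to 31511 CPM summed in PFC CUMS_M and 20337 to 23551 CPM in PFC CUMS, and their part in the Per1 value was not tested.

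**Figure D2:**
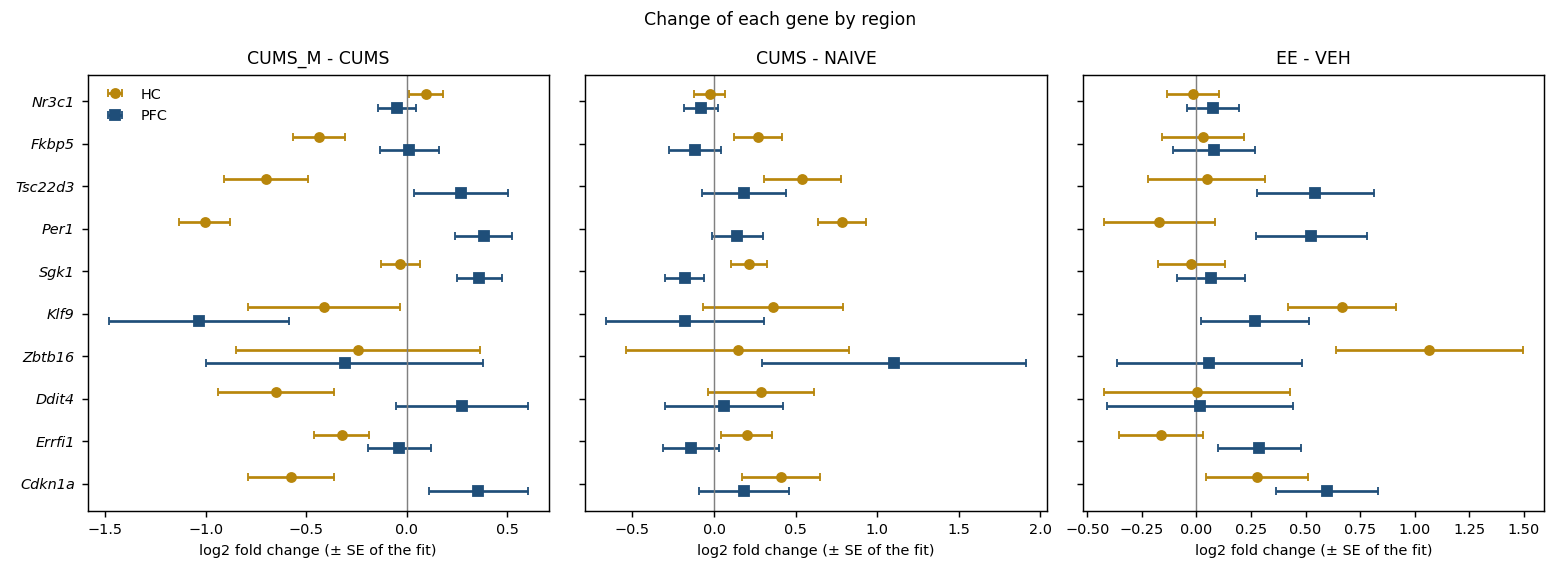
Log2 fold change of each gene with its standard error from the edgeR fit, for CUMS_M minus CUMS, CUMS minus NAIVE and EE minus VEH, with HC as circles and PFC as squares. Per1 is at -1.01 in HC and 0.38 in PFC for minocycline, and Nr3c1 stays near 0 in all 3 panels.

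Set against NAIVE, Per1 separated in the stressed hippocampus but did not pass the edgeR test. It had 187, 187 and 194 CPM in HC CUMS and 127 and 92.3 CPM in HC NAIVE, a log2 difference of 0.78 ± 0.14. The edgeR test called 0 of the 14579 genes in this contrast, with an adjusted p of 0.456 for Per1. Before adjustment 418 genes were under 0.05. DESeq2 called 1 gene, Per1, with an adjusted p of 0.00248. Tsc22d3 had 217, 178 and 196 CPM in HC CUMS and 135 and 136 CPM in HC NAIVE, a log2 difference of 0.54 ± 0.24 (edgeR adjusted p = 0.9999). Cdkn1a and Errfi1 also lay above without overlap, with log2 differences of 0.41 and 0.20, which makes 4 of the 10 genes where 10.3% of all genes did so. None of the 10 lay below, where 10.1% of all genes did. Leaving out 1 library moved the Per1 difference between 0.59 and 1.05. The HC CUMS libraries are those of the minocycline contrast that drew attention to Per1, so these values are not independent of it.

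Astrocyte and oligodendrocyte markers were also higher in HC CUMS, 12 of 12 genes in each list, with a summed astrocyte level of 463 to 518 CPM in HC CUMS and 291 to 351 CPM in HC NAIVE and with none of these genes at 0. Immediate early genes had positive differences in 22 of 22, at 15145 to 27731 CPM summed in HC CUMS and 11081 to 19368 CPM in HC NAIVE. Neutrophil genes went the other way, with negative differences in 12 of 12 and 9 below without overlap, at 152 to 424 CPM summed in HC CUMS and 675 to 1437 CPM in HC NAIVE, and their part was not tested. With the markers of other brain cells as a covariate the Per1 difference was 1.02 (edgeR adjusted p = 0.00383) and that of Tsc22d3 0.96 (edgeR adjusted p = 0.0137). The main fit called neither gene. These values use the same HC CUMS libraries and are not independent of the choice of Per1. The mean marker level was 3.46 to 3.63 log2 CPM in HC CUMS and 2.94 to 3.12 log2 CPM in HC NAIVE. Marker level and stress therefore cannot be told apart in that fit. Fkbp5 had 132, 136 and 202 CPM in HC CUMS and 134 and 126 CPM in HC NAIVE, and overlapped. Nr3c1 had 208, 222 and 234 CPM in HC CUMS and 211 and 240 CPM in HC NAIVE, and overlapped as well.

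In stressed hippocampus with minocycline, 1 of the 10 genes lay above NAIVE without overlap and 1 below, shares near those over all genes. The HC CUMS_M libraries are those of the contrast that drew attention to Per1, so these values are not independent of it. Per1 had 88.7, 97.2 and 97.0 CPM in HC CUMS_M and 127 and 92.3 CPM in HC NAIVE, with overlapping groups. Fkbp5 alone lay below, with 110, 115 and 123 CPM in HC CUMS_M and 134 and 126 CPM in HC NAIVE and a log2 difference of -0.17, as did 8.16% of all genes. Sgk1 alone lay above, with 588, 581 and 545 CPM in HC CUMS_M and 533 and 475 CPM in HC NAIVE and a log2 difference of 0.18, as did 9.54% of all genes. Astrocyte and oligodendrocyte genes had positive differences in 12 of 12 each and immediate early genes negative ones in 21 of 22. No gene passed in edgeR, 339 were under 0.05 before adjustment, and 1 passed in DESeq2.

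In prefrontal cortex, stress alone called 119 of 14579 genes in edgeR (0.816%) and none of the 10. Per1 had 169 and 167 CPM in PFC CUMS and 138 and 166 CPM in PFC NAIVE, a log2 difference of 0.14. Zbtb16 had 1.54 and 2.88 CPM in PFC CUMS and 1.18 and 0.863 CPM in PFC NAIVE, a difference of a few reads, with a log2 difference of 1.10 ± 0.81 (edgeR adjusted p = 0.573). These genes lay above without overlap, 2 of the 10, where 24.2% of all genes did with 2 libraries a side. Sgk1, at 511 and 496 CPM in PFC CUMS and 594 and 546 CPM in PFC NAIVE, lay below with Nr3c1 and Errfi1, 3 of the 10, where 19.4% of all genes did. Their log2 differences were -0.18 for Sgk1, -0.08 for Nr3c1 and -0.14 for Errfi1. Astrocyte markers were higher in PFC CUMS, 12 of 12 genes, at 731 to 794 CPM summed against 231 to 263 CPM in PFC NAIVE, and with the markers as a covariate the Per1 difference was 0.66, that of Zbtb16 2.19 and that of Errfi1 -0.30. That fit called 1 gene of the set, Tsc22d3. The mean marker level did not overlap between PFC CUMS and PFC NAIVE, so marker level and stress cannot be told apart in it. Neutrophil genes had negative differences in 11 of 12, at 1595 to 2119 CPM summed in PFC CUMS and 3022 to 4334 CPM in PFC NAIVE, where up to 2 of them were at 0, and their part was not tested.

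Prefrontal CUMS_M against NAIVE called 13 genes in edgeR (0.0892%), none of them in the set. Per1 had 182, 265 and 210 CPM in PFC CUMS_M and 138 and 166 CPM in PFC NAIVE, a log2 difference of 0.53 ± 0.14 (edgeR adjusted p = 0.155). Without the second PFC NAIVE library it was 0.66 (edgeR adjusted p = 0.0469). Tsc22d3 and Cdkn1a lay above as well, with log2 differences of 0.45 and 0.54, which makes 3 of the 10 genes where 13.9% of all genes did. Errfi1 and Nr3c1 lay below, with log2 differences of -0.18 and -0.13, as did 11.4% of all genes. For Klf9 the PFC NAIVE libraries lay far apart, and the value turned on them. Klf9 had 4.93, 1.79 and 3.49 CPM in PFC CUMS_M and 12.7 and 3.33 CPM in PFC NAIVE. Its log2 difference of -1.21 ± 0.46 (edgeR adjusted p = 0.272) was 0.05 without the first PFC NAIVE library and -1.88 without the second (edgeR adjusted p = 0.0134).

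Markers again differed between these groups. Of 22 immediate early genes 20 had positive differences and 11 lay above without overlap, at 21453 to 31511 CPM summed in PFC CUMS_M and 17083 to 20394 CPM in PFC NAIVE. All 12 astrocyte genes had positive differences and 1 was called, at 305 to 489 CPM in PFC CUMS_M and 231 to 263 CPM in PFC NAIVE, where at most 1 of them was at 0. All 12 oligodendrocyte genes had negative differences, at 269 to 412 CPM in PFC CUMS_M and 386 to 945 CPM in PFC NAIVE. Choroid plexus genes had positive differences in 7 of 8, which rested on PFC CUMS_M replicate 3. Their summed level was 776 CPM there, 14.3 and 9.41 CPM in the other PFC CUMS_M libraries and 42.6 and 15.3 CPM in PFC NAIVE. Neutrophil genes had negative differences in 10 of 12. With the markers of other brain cells as a covariate the log2 difference was 0.47 for Per1, 0.37 for Tsc22d3 and 0.48 for Cdkn1a, and the part of the immediate early, choroid plexus and neutrophil genes, which are not in that covariate, was not tested.

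The stress effect itself was compared between regions. This test shares the HC CUMS libraries with the contrast that chose Per1. For Per1 the HC difference exceeded the PFC difference by a log2 value of 0.64 ± 0.21 (adjusted p = 0.615 in edgeR), and Sgk1 followed with 0.39 ± 0.16 (edgeR adjusted p = 0.713). With the markers of other brain cells as a covariate the Per1 value was 0.36. None of 14579 genes passed in edgeR and 19 did in DESeq2, with 914 under 0.05 before adjustment.

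Between the regions, averaged over treatments, edgeR called 744 of 14579 genes in the minocycline experiment (5.1%), 500 higher (3.43%) and 244 lower in HC. Of the 10 genes 2 were called, Errfi1 and Per1, both among the lower ones, which made up 1.67% of all genes. Per1 had a log2 difference of -0.50 ± 0.08, in which the HC CUMS_M and HC CUMS libraries that drew attention to it take part, so that its call is no independent test. It was -0.34 with the replicate block and -0.47 in the NAIVE libraries alone, and was not called in either. Errfi1 had a log2 difference of -0.35 ± 0.09 (edgeR adjusted p = 0.0277). It had 40.3, 35.0 and 26.4 CPM in HC CUMS_M against 45.9, 51.0 and 40.5 CPM in PFC CUMS_M, and 35.8 and 38.2 CPM in HC NAIVE against 51.6 and 51.8 CPM in PFC NAIVE. In the CUMS groups the regions were closer, with 41.0, 47.9 and 38.5 CPM in HC and 46.9 and 46.8 CPM in PFC. Within 1 treatment the log2 difference was -0.43 in CUMS_M (edgeR adjusted p = 0.168), -0.14 in CUMS (adjusted p = 0.9999) and -0.48 in NAIVE (adjusted p = 0.199), and the call was kept in 8 of the 15 fits that leave out 1 library, with adjusted p from 0.0152 to 0.0877. It was also lost with the replicate number as a block (adjusted p = 0.36) and with the markers of other brain cells as a covariate (adjusted p = 0.0657). In the enrichment experiment Errfi1 had a regional log2 difference of -0.05 ± 0.14 (edgeR adjusted p = 0.9997).

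Several marker lists differed between the regions too. All 8 choroid plexus genes were called higher in HC, and 12 of 12 endothelial and mural genes had positive differences with 7 called. All 12 neutrophil genes had negative differences with 1 called, and so did 22 of 22 immediate early genes with 2 called. Of these lists the covariate holds the endothelial and mural genes, and the part of the others in the values of Errfi1 and Per1 was not tested.

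The regional order of the Per1 levels was not the same in every treatment. It was lower in HC than in PFC under CUMS_M (88.7 to 97.2 against 182 to 265 CPM) and in NAIVE mice (92.3 and 127 against 138 and 166 CPM, log2 difference -0.47, edgeR adjusted p = 0.174), and higher in HC under CUMS (187 to 194 against 167 and 169 CPM, log2 difference 0.17). Klf9 ran the other way from Errfi1, with 9.07, 6.45 and 9.46 CPM in HC CUMS_M and 4.93, 1.79 and 3.49 CPM in PFC CUMS_M. Its regional log2 difference over all treatments was 0.68 ± 0.26 (edgeR adjusted p = 0.147), and the fits that leave out 1 library ran from 0.46 without the second PFC NAIVE library to 1.10 without the first (edgeR adjusted p = 0.00835), the 1 call among 15. It was 0.08 with the replicate block and 0.34 with the marker covariate, and without the low-count filter 0.69 (edgeR adjusted p = 0.0107). In the enrichment experiment no gene passed between regions in edgeR or DESeq2, where 331 were under 0.05 before adjustment. On the log2 scale Klf9 stood there at 0.36 ± 0.17, Per1 at -0.26 ± 0.18 and Nr3c1 at 0.15 ± 0.08. Nr3c1 had the opposite sign in the minocycline experiment, at -0.13 ± 0.05 (edgeR adjusted p = 0.178).

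Enrichment in stressed mice gave no call in the set, and the groups overlapped for Nr3c1 and Fkbp5 in both regions. In hippocampus, Klf9 was the 1 gene of the 10 that lay above without overlap, and none lay below, where 9.66% and 6.36% of all genes did, with 12.2, 8.13 and 10.6 CPM in HC EE and 5.61, 6.29 and 7.55 CPM in HC VEH. Its log2 difference was 0.67 ± 0.25 (edgeR adjusted p = 0.333). Zbtb16 had 3.38, 1.64 and 4.49 CPM in HC EE and 1.18, 1.41 and 1.94 CPM in HC VEH, a log2 difference of 1.07 ± 0.43 (edgeR adjusted p = 0.392), with overlapping groups. Of 15921 genes 0 passed in edgeR and 441 in DESeq2, and 1652 were under 0.05 before adjustment.

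Markers of other cells were higher in the same HC EE libraries. All 12 astrocyte and all 12 oligodendrocyte genes had positive log2 differences, with summed levels of 662 to 909 CPM in HC EE and 444 to 561 CPM in HC VEH for astrocytes and of 500 to 898 CPM in HC EE and 249 to 325 CPM in HC VEH for oligodendrocytes. None of these genes was at 0. With the markers as a covariate the Klf9 difference was 0.29 and that of Zbtb16 1.15. The mean marker level was 3.32 to 3.80 log2 CPM in HC EE and 2.34 to 2.77 log2 CPM in HC VEH. Marker level and enrichment therefore cannot be told apart in that fit. Per1 had 207, 175 and 255 CPM in HC EE and 207, 342 and 168 CPM in HC VEH, and Tsc22d3 182, 211 and 291 CPM in HC EE and 230, 301 and 131 CPM in HC VEH. The spread within VEH exceeded the gap between the group means for both genes.

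In prefrontal cortex all 10 genes had a positive log2 difference under enrichment, with a median of 0.17 against -0.02 over all 15921 genes tested. Per1 had 350, 222 and 398 CPM in PFC EE and 218, 230 and 226 CPM in PFC VEH, so that the second EE library sat among the VEH libraries. Tsc22d3 had 302, 217 and 358 CPM in PFC EE and 211, 207 and 183 CPM in PFC VEH, a log2 difference of 0.55 ± 0.27 (edgeR adjusted p = 0.986). It was the 1 gene of the 10 that lay above without overlap, and none lay below, where 4.8% and 4.39% of all genes did. Cdkn1a had 45.3, 31.0 and 35.1 CPM in PFC EE and 24.8, 33.1 and 15.9 CPM in PFC VEH, a log2 difference of 0.60 ± 0.23 (edgeR adjusted p = 0.986). Immediate early genes moved along: 22 of 22 had positive differences, with a summed level of 28555 to 43689 CPM in PFC EE and 17831 to 29452 CPM in PFC VEH, and their part in the values of Per1 was not tested. Neutrophil genes had positive differences in 12 of 12, at 386 to 2932 CPM summed in PFC EE and 403 to 1107 CPM in PFC VEH with up to 1 of them at 0, and monocyte genes in 8 of 8, at 114 to 382 CPM in PFC EE and 133 to 197 CPM in PFC VEH. The sums of both lists overlapped between the groups, and their part was not tested. Here 0 genes passed in edgeR and 17 in DESeq2, and 677 were under 0.05 before adjustment. The difference of the enrichment effects between regions called 0 genes in edgeR and 0 in DESeq2, with 670 under 0.05 before adjustment, and for Per1 it was -0.70 ± 0.36 (edgeR adjusted p = 0.998).

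**Figure D3:**
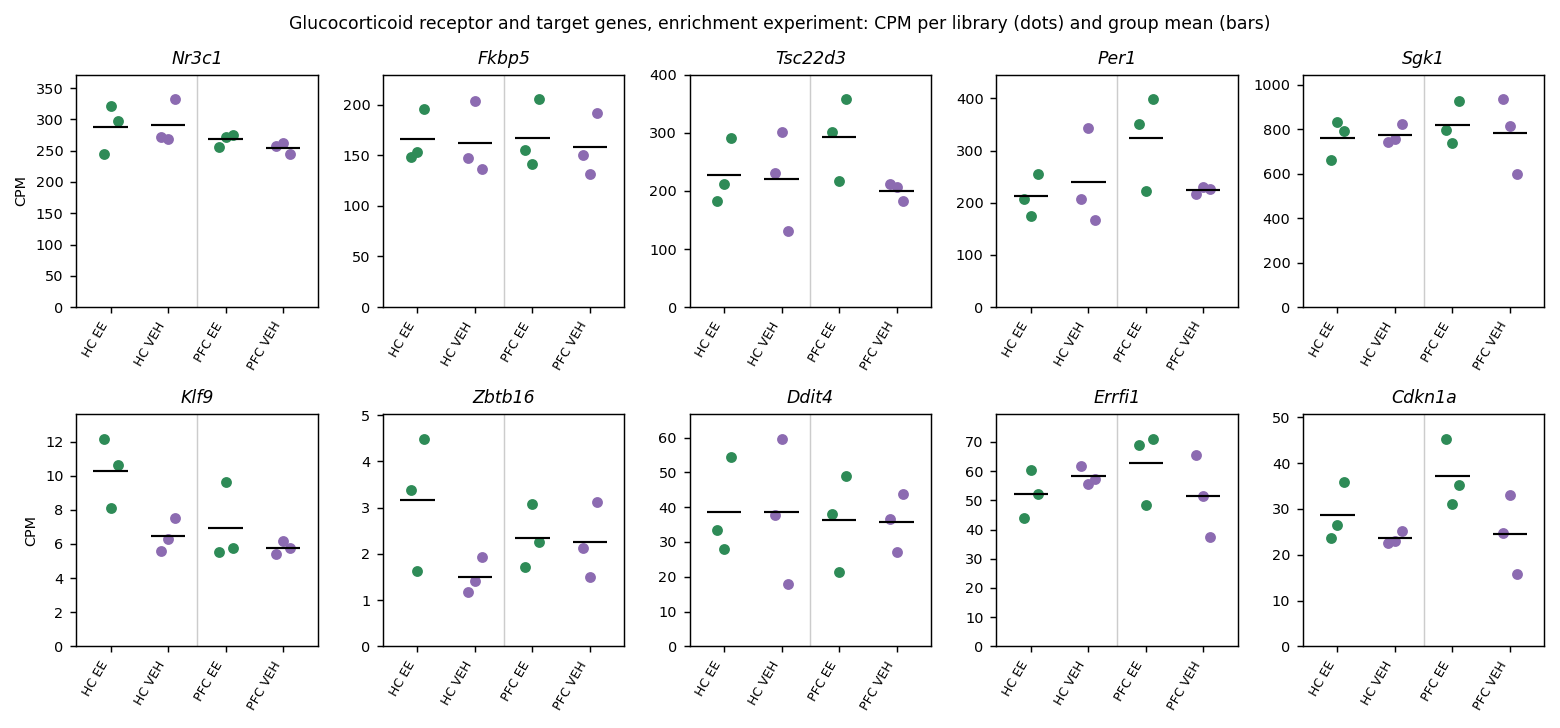
CPM of the receptor and target genes in the enrichment experiment, each on its own axis from 0, with 1 dot per library and a bar at the group mean (n = 3), for HC on the left and PFC on the right of each panel. Klf9 in HC EE (8.13 to 12.2 CPM) lies above HC VEH (5.61 to 7.55 CPM), and 1 library of each group stands high for both Fkbp5 and Ddit4.

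Libraries of 1 group differed in several genes of the set at once. Fkbp5 reached 195 CPM in HC EE replicate 3, 204 CPM in HC VEH replicate 2, 205 CPM in PFC EE replicate 3 and 192 CPM in PFC VEH replicate 3, against 132 to 156 CPM in the other 8 enrichment libraries. Ddit4 was the highest of its group in the same libraries, with 54.3, 59.7, 49.1 and 43.8 CPM. In the minocycline experiment HC CUMS replicate 3 showed the same pair, with 202 CPM of Fkbp5 and 56.1 CPM of Ddit4. Across the 12 enrichment libraries the log2 CPM of Fkbp5 and Ddit4 had a Pearson r of 0.86 and a Spearman rho of 0.90, and an r of 0.87 once group means were removed. In the 15 minocycline libraries the same pair had an r of 0.56 and a rho of 0.25, and an r of -0.09 without the 2 libraries of Fkbp5 farthest from its median, so that it rested on them. Per1 and Tsc22d3 went along in the enrichment libraries: with group means removed, Ddit4 had an r of 0.91 with Per1 and of 0.89 with Tsc22d3, and Fkbp5 had 0.78 with Per1. The labels give no time of collection or batch by which to sort these libraries.

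Over all libraries of an experiment, and with groups left in, Per1 had its highest r in the set with Tsc22d3. It was 0.82 (rho 0.91) over the 15 minocycline libraries and 0.87 (rho 0.73) over the 12 enrichment libraries. With group means removed it was 0.49 in the first and 0.87 in the second, where Ddit4 stood higher, and in the first Per1 and Klf9 had an r of -0.79. Per1 and Nr3c1 had an r of 0.04 and of -0.37, and Per1 and Klf9 of -0.49 and of -0.36, in the same order of experiments. Sgk1 and Errfi1 also went together in the enrichment experiment, with an r of 0.86 (rho 0.75), which was 0.61 without the 2 libraries farthest out. These correlations describe libraries that share groups, regions and scaling, and carry no test.

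Outside the set, the genes whose log2 CPM followed Per1 most closely over the 15 minocycline libraries, among 8357 genes of at least 10 CPM on average, were Dusp1, a MAP kinase phosphatase (r = 0.918), Nfkbia, the inhibitor of NF-kB (0.914), and the early transcription factor genes Klf4 (0.911), Fos (0.903) and Nr4a1 (0.895). Dusp1 had 321, 323 and 247 CPM in HC CUMS_M, 950, 702 and 565 CPM in HC CUMS and 565 and 272 CPM in HC NAIVE. With group means removed these r values lay between 0.456 for Nfkbia and 0.722 for Klf4. Over the 12 enrichment libraries, among 8480 genes, a different 5 came first: Phc2, a Polycomb subunit gene (0.895), Gna11, a G protein subunit gene (0.891), Traf5, a TNF receptor adaptor gene (0.890), Setdb1, a histone methyltransferase gene (0.889), and Tle3, a corepressor gene (0.887).

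**Figure D4:**
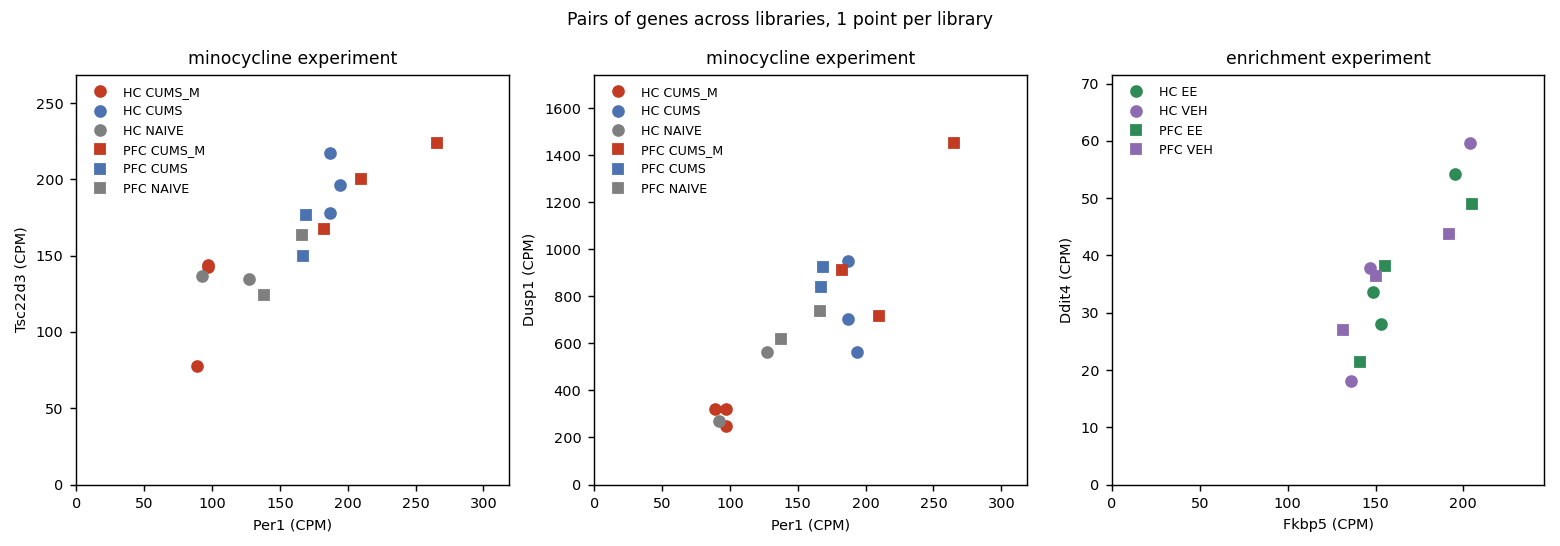
CPM of Tsc22d3 and of Dusp1 against Per1 in the 15 minocycline libraries, and of Ddit4 against Fkbp5 in the 12 enrichment libraries, with 1 point per library, circles for HC, squares for PFC and colours for treatment. The 3 HC CUMS_M libraries sit together at the low end of Per1, and the 4 enrichment libraries of highest Fkbp5 (192 to 205 CPM) are also those of highest Ddit4 (43.8 to 59.7 CPM).

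The wider pathway was followed with 3 lists. Of 18 genes of the receptor, its chaperones and its coregulators, with the steroid enzyme genes Hsd11b1 and Hsd11b2 among them, 17 were tested. None passed the edgeR test in any contrast of treatments. The lists, like the set, were drawn up with earlier results in view. Under minocycline in hippocampus 10 of the 17 had a positive log2 difference, with a median of 0.10 against 0.01 over all genes. Hspa8, a constitutive Hsp70 chaperone gene, had 661, 775 and 775 CPM in HC CUMS_M and 1093, 847 and 880 CPM in HC CUMS, and Ncoa2, a receptor coactivator gene, had 151, 129 and 139 CPM in HC CUMS_M and 108, 118 and 112 CPM in HC CUMS. Under enrichment 16 of the 17 had positive differences in each region, with medians of 0.09 in HC and 0.22 in PFC against -0.03 and -0.02 over all genes. Hsp90ab1, which encodes an Hsp90 that holds the receptor ready for hormone, had 967, 943 and 1171 CPM in HC EE against 656, 857 and 621 CPM in HC VEH (log2 difference 0.53 ± 0.16, edgeR adjusted p = 0.195), and 1106, 882 and 1104 CPM in PFC EE against 836, 629 and 631 CPM in PFC VEH (0.56 ± 0.16, edgeR adjusted p = 0.986). In both regions its groups did not overlap.

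Among 36 other glucocorticoid-induced genes, 34 were tested, and none passed the edgeR test in a contrast of treatments. Under minocycline in hippocampus 24 of 34 had negative differences, with a median of -0.23 against 0.01 over all genes. Dusp1, with the values given above, and Nfkbia, at 138, 163 and 141 CPM in HC CUMS_M and 380, 326 and 223 CPM in HC CUMS, had the largest differences among those without overlap. Of this list 3 genes, Dusp1, Rhob and Zfp36, are also in the immediate early list. In prefrontal cortex the median under minocycline was 0.03 against 0.02. Under enrichment 25 of 34 were positive in HC and 29 of 34 in PFC. Cd163, a hemoglobin scavenger receptor gene that also marks border-associated macrophages, had 107, 79.5 and 123 CPM in HC EE and 55.1, 50.2 and 56.8 CPM in HC VEH (log2 difference 0.93 ± 0.19, edgeR adjusted p = 0.0790). Of the border-associated macrophage genes 8 of 8 were higher, at 581 to 801 CPM summed in HC EE and 348 to 450 CPM in HC VEH. Cd163 is itself in that list, so it is part of this count and of these sums. The part of the other genes of the list in the Cd163 value was not tested.

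Cytokine genes that glucocorticoids repress are set beside the induced ones here, and how the lists relate was not tested. The list of 12 genes includes the enzyme genes Nos2 and Ptgs2 and the adhesion molecule gene Icam1, which are counted with the cytokine genes here. Of the 12 genes 10 were tested, and none passed the edgeR test between treatments. Under minocycline in hippocampus, the contrast in which Per1 had stood out, 10 of 10 had negative differences, with a median of -0.57. Of all genes 51.5% had positive ones there. Tnf had 18.3, 17.8 and 12.5 CPM in HC CUMS_M and 47.8, 42.5 and 25.2 CPM in HC CUMS. Il1b had 11.3, 15.6 and 24.1 CPM in HC CUMS_M and 42.1, 31.1 and 31.3 CPM in HC CUMS. Under enrichment in PFC 10 of 10 were positive, with a median of 0.65, where 46.7% of all genes were. There Il1a had 135, 91.9 and 149 CPM in PFC EE and 69.5, 76.3 and 63.8 CPM in PFC VEH (log2 difference 0.84 ± 0.18, edgeR adjusted p = 0.550). In PFC CUMS_M against NAIVE 10 of 10 cytokine genes were positive, with a median of 0.33, where 53.3% of all genes were. The induced genes had a median of -0.0007 in that contrast, with 16 positive and 17 negative. Between regions in the minocycline experiment edgeR called 1 of the 17 receptor and chaperone genes, 5 of the 34 induced genes and 2 of the 10 cytokine genes, where 5.1% of all genes were called: Cebpb was higher in HC (log2 difference 0.74 ± 0.09), as was Tsc22d1 (0.56), and Nfkbia (-0.59), Il1a (-0.71), Il1b (-0.66) and Hspa8 (-0.25) were lower in HC, with edgeR adjusted p between 0.000121 and 0.0336.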

How the data were processed

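The authors deposited 1 table of raw read counts per gene for each experiment, 15 and 12 libraries, made with Trimmomatic 0.36, STAR 2.6.1b, Picard 2.17.1 and featureCounts 1.5.3, per the submitters' processing notes, which name mm10 and GRCm38. Per the labels, the library kit keeps strand; the strand setting of the counting is not given in the sources used here. The deposited counts were analysed as whole numbers, and GENCODE M21 gave a symbol for 53412 identifiers of the minocycline table and 55240 of the enrichment table.

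Each table was fitted alone in R 4.3.3 with edgeR 4.0.16 (TMM scaling, filterByExpr with a minimum count of 10 and a minimum total of 15, robust quasi-likelihood F-test, all groups in 1 fit). Benjamini-Hochberg adjustment ran over all genes tested, and a gene was called at an adjusted p under 0.05. CPM use TMM-scaled library sizes, and correlations use log2 CPM with a prior count of 2. Above or below without overlap means that every library of 1 group lies beyond every library of the other. The fit was also run on simulated counts, the outcome of which is not given here. Alternatives were DESeq2 1.42.0 and its size factors, no filter, a replicate block, only the groups compared, the mean log2 level of markers of other brain cells as a covariate, and leaving out each library.

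The members and lists were chosen with earlier results of these data known. The 10 genes were named throughout. From each pathway list up to 3 called genes per contrast, or else up to 2 with the largest difference without overlap and at least 10 CPM, could be named, of which a selection is given. The 5 genes of highest r with Per1 were named per experiment, leaving out clone-type names. Per2 was singled out after its values were seen. Groups share replicate numbers. Same-numbered EE and VEH libraries of PFC deviated together (r = 0.359, 0.198 and 0.208). PFC VEH replicate 3 and PFC EE replicate 2, of different numbers, had an r of 0.237. No label says that the numbers mark pairs. The values given for PFC EE against VEH come from the fit without pairs, and the replicate block was an alternative. In no other pair of groups did all same-numbered libraries reach an r of 0.1, though some did. Between PFC VEH and HC VEH the r was 0.438, -0.0408 and 0.221 for replicates 1, 2 and 3. No fit paired libraries across regions.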

Additional observations from a re-analysis of the deposited data

Results flagged for a closer look

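The minocycline difference of Per1 had opposite signs in the regions. Every HC CUMS_M library lay below every HC CUMS library, and every PFC CUMS_M library lay above every PFC CUMS library, so that the HC log2 difference minus the PFC log2 difference was -1.39. That value was not tested, because the hippocampal contrast is the one from which Per1 was chosen. Leaving out 1 library moved the PFC difference between 0.22 and 0.50. In the fit with the markers of other brain cells as a covariate the PFC difference was -0.19, of the same sign as in HC. The mean level of those markers did not overlap between PFC CUMS_M and PFC CUMS, so that fit cannot tell marker level from treatment.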

How the results depend on the processing

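Fold changes of the 10 genes were recomputed where the groups did not overlap or the edgeR p was under 0.05 before adjustment. Over the alternatives this gave 480 values, of which 449 were counted as kept, 14 lost and 10 gained a call and 5 changed sign. A value was counted as kept if it held its direction and its side of the threshold. Most had no call to lose, as the main fit called only Errfi1 and Per1 between regions among the tested contrasts. In the untested contrast HC CUMS_M against CUMS, a value was kept if it moved by less than the spread within groups. There 2 values moved by more with the marker covariate, Per1 to -1.16 and Klf9 to 0.10, which is also a change of sign. The other sign changes were those of PFC CUMS_M against CUMS with the marker covariate (Per1 -0.19, Klf9 0.53, Ddit4 -0.44), of Klf9 in PFC CUMS_M against NAIVE (-1.88 to 0.05 over the leave-outs, 0.053 without its first PFC NAIVE library) and of Per1 between regions in the CUMS libraries alone (0.17); their cause was not tested. Counts of all genes called moved more. Without the low-count filter they were 170 for PFC CUMS_M against CUMS, 402 for PFC CUMS against NAIVE, 268 for PFC CUMS_M against NAIVE, 31 for HC CUMS_M against CUMS, 17 for HC CUMS against NAIVE, 8 for HC CUMS_M against NAIVE, 278 for HC EE against VEH, 19 for PFC EE against VEH, 1191 between regions, 8 for the enrichment interaction and 57 for the stress interaction. With DESeq2 they were, for the same contrasts, 73, 348, 138, 10, 1, 1, 441, 17, 1173 and, for the stress interaction, 19. With the replicate block they were 0, 63, 0 and 5 for the first 4 contrasts, 73 for HC EE against VEH and 200 between regions. The block changed no call of the 10 genes except between regions, where 0 stayed called. In PFC EE against VEH, where same-numbered libraries deviated together, it called 0 genes. With the marker covariate they were 0, 23, 35 and 5 for the first 4 contrasts, 2 for HC CUMS against NAIVE, 247 between regions and 3 for the stress interaction. With only the groups compared they were 68, 26 and 0 for the PFC contrasts, 1 for HC CUMS_M against NAIVE, 223 for HC EE against VEH and 12 for the stress interaction. Between regions, the NAIVE, CUMS and CUMS_M libraries alone, chosen after seeing the data, gave 88, 54 and 137 genes, with 0, 0 and 1 of the 10. Of the 10 genes, the covariate called 1 for PFC CUMS against NAIVE, 2 for HC CUMS against NAIVE and 1 between regions, no filter called 2 for PFC CUMS_M against NAIVE and 1 for HC CUMS against NAIVE, and DESeq2 called 1 there. Leaving out 1 library gave 0 to 9, 13 to 540, 0 to 610, 0 to 5, 0 to 1, 0 to 1, 0 to 41, 0 to 2 and 292 to 983 genes for the contrasts in the order above, and 0 to 140 for the stress interaction; the highest counts against PFC NAIVE, 540 and 610, came without its second library. Of the 10 genes the leave-outs called 0 to 2 for PFC CUMS_M against NAIVE and 1 to 3 between regions, against 2 with all libraries. Groups of 2 or 3 libraries limit every comparison, and Zbtb16 and Klf9 rest on few counts.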
